A study of Mus musculus with 40 samples.

Results

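A set of 10 genes of the mouse amygdala was followed across colonisation groups and single animals: Pign, Coq2, Gnpda1, Mid1, Sp6, Serpinb1a, Krt12, Ahnak2, AA465934 and Gm3608. These 10 of the 43629 genes in the count table were chosen by their measured RNA levels, which differed between conventional mice (CON) and mice born germ-free, either kept germ-free (GF) or colonised later (exGF), or between GF and exGF mice. The differences between colonisation groups therefore chose the genes, and they are given below as descriptions without a test. Measures that the choice did not use are the genes that lie beside the 10 and the other genes of their pathways and families. The responses to social interaction are given too, but they rest on the same libraries as the choice.

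All mice were male Swiss Webster animals of 10 weeks, and RNA was taken from the amygdala of the left hemisphere, a group of nuclei that process emotional and social stimuli. CON mice were offspring of conventional breeding pairs. GF and exGF mice were offspring of germ-free breeding pairs, so that breeding stock and germ-free birth cannot be told apart in any of the differences below. GF mice stayed in the germ-free unit, and exGF mice left the germ-free unit after weaning and were housed on bedding used by CON mice. Naïve CON, GF and exGF mice gave 4 libraries each, named P with a number, which were pools of animals, although the study lists GF-P2 as a single animal. Mice killed 1 hr after a 3-chamber social interaction test gave 8 CON-SI, 12 GF-SI and 8 exGF-SI libraries, named S, each of a single animal. A comparison of SI with naïve libraries thus also sets single animals against pools, and tested mice against mice for which no such handling is described. In bulk tissue, fewer cells of a type and less RNA per cell cannot be told apart.

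The genes have little in common by function. Pign adds ethanolamine phosphate to the glycan of the GPI anchor, the lipid that holds many proteins on the outer face of the cell membrane. Coq2 attaches the isoprenoid tail to the ring of coenzyme Q, the electron carrier of mitochondria, and Gnpda1 turns glucosamine-6-phosphate back towards glycolysis. Mid1 is a TRIM ubiquitin ligase on microtubules that targets the catalytic subunit of the phosphatase PP2A, and its gene spans the pseudoautosomal boundary of the mouse X chromosome. Sp6 is a zinc finger transcription factor of tooth and skin epithelium, Serpinb1a inhibits serine proteases of neutrophils, Krt12 is the type I keratin of corneal epithelium, and Ahnak2 is a very large scaffold protein with a PDZ domain. AA465934 is annotated as a non-coding transcript, the host of the snoRNA gene Snord7, and Gm3608 as a pseudogene.

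Library totals were 7291810 to 19961958 counts. All 11 markers of amygdala nuclei and neurons were above 0 in all 40 libraries. The ribosomal RNA-related transcript Gm42418 took more than 5% of the counts in 5 libraries (the pools 1 and 3 of CON, the pools 1 and 2 of exGF, and exGF-S7) and at most 1.75% in the others. The library exGF-S7 stood apart from the other 7 exGF-SI libraries. It was the lowest of the group for Pign, Mid1 and Serpinb1a, and the highest for AA465934 and Coq2. Its Pign level of 14.8 CPM (counts per 1000000 counts of the library, scaled by TMM, a factor that corrects library totals for composition) lay inside the range of the 12 conventional libraries and outside that of the other 27 germ-free-born libraries. For Coq2, Krt12 and Sp6 it lay above all 12 conventional libraries, with 50.5, 5.11 and 3.15 CPM. Results that rest on this library are given with and without it. Of the markers of other tissues, the choroid plexus genes Ttr and Sostdc1 were higher in exGF-SI than in CON-SI, and 2 of 8 striatal markers (Adora2a and Gpr6) were lower in GF-SI than in GF; their part in the differences below was not tested.

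**Figure D1:**
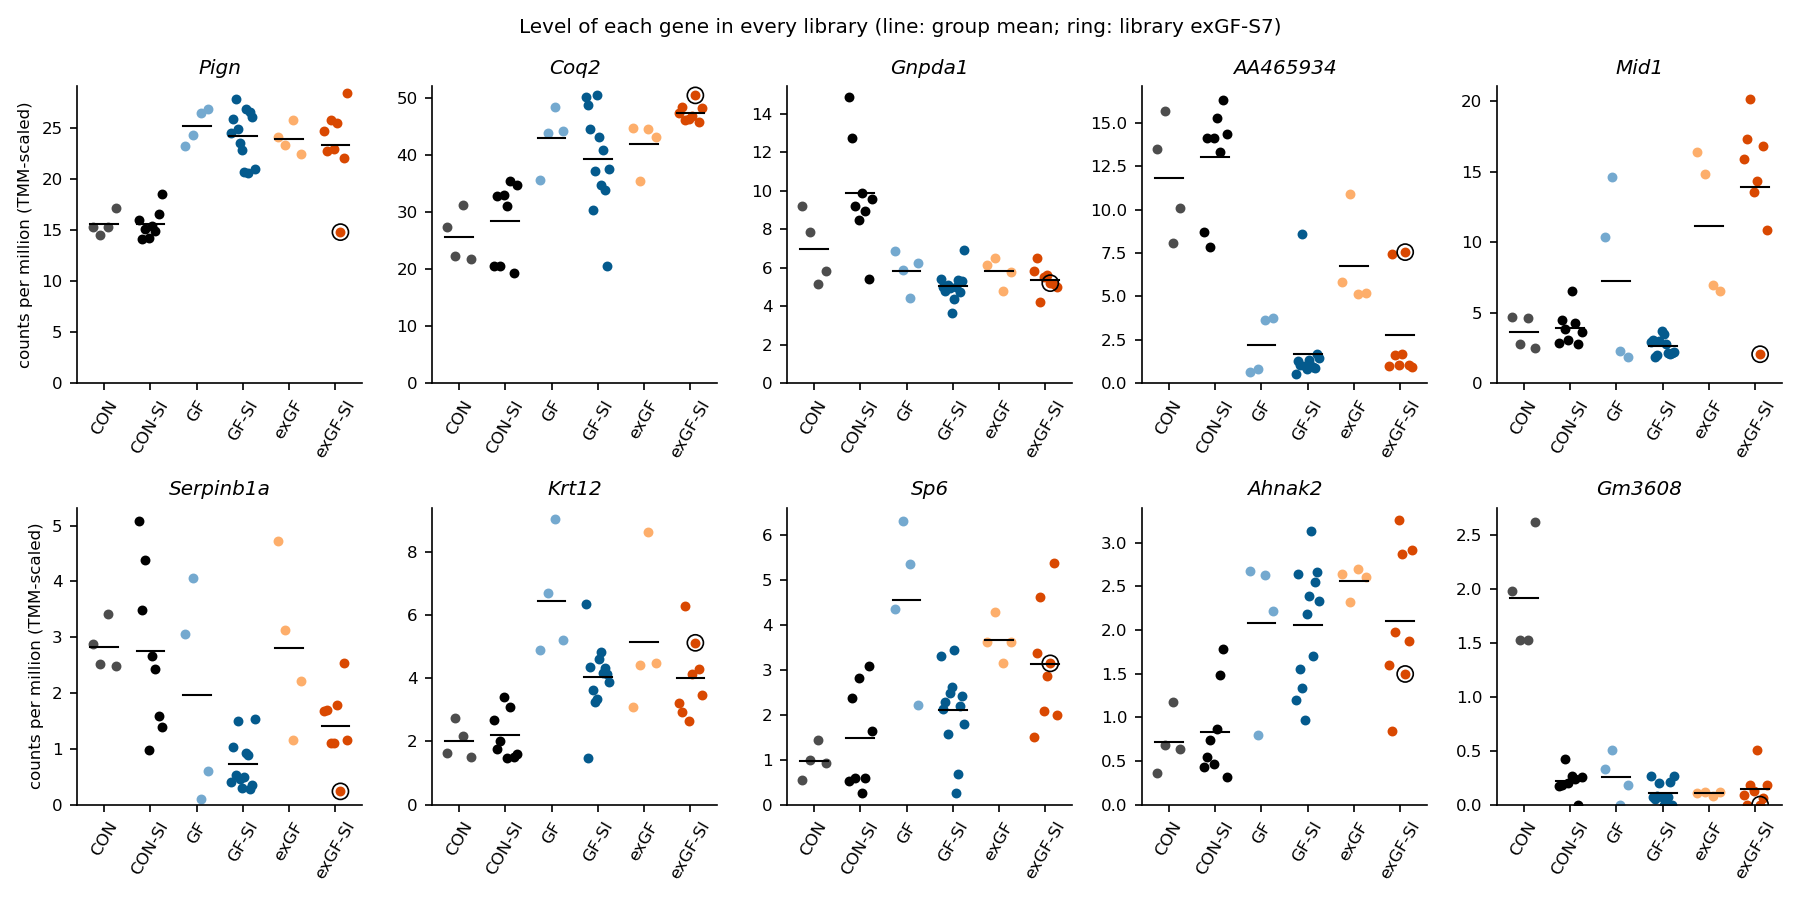
Each panel plots the level of a gene (vertical axis, TMM-scaled CPM, starting at 0) in every library of the 6 groups, with a line at the group mean and a ring around exGF-S7. Pign and Coq2 are higher in most germ-free-born libraries than in conventional ones, AA465934 and Mid1 fall into separate low and high sets of libraries, and Gm3608 is above 1 CPM only in the 4 naïve CON pools.

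Pign gave the steadiest difference. The gene lies on the minus strand of chromosome 1 (chr1:105518422-105663677, GRCm38) with 34 exon blocks. Its promoter is shown together with those of AA465934 and Mid1, since Pign was the gene of the 10 whose libraries were apart without exGF-S7, and AA465934 and Mid1 differed widely between libraries of the same group. The windows run from 250 bases before to 50 bases after the RefSeq start site (GRCm38.p6), at chr1:105663627-105663926 on the minus strand, chr11:83291449-83291748 on the plus strand and chrX:169684949-169685248 on the plus strand. Capitals mark matches, on either strand, to 4 motifs: the TATA box (spelled TATAAA), the E box (spelled CACGTG), the CCAAT box (spelled CCAAT) and the GC box (spelled GGGCGG).
Pign: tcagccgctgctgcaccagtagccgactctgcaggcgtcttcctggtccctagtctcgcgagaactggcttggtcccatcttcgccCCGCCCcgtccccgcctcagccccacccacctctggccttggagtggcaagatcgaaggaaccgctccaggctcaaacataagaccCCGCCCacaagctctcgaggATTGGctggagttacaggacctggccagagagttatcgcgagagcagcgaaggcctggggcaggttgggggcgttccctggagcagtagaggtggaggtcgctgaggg
AA465934: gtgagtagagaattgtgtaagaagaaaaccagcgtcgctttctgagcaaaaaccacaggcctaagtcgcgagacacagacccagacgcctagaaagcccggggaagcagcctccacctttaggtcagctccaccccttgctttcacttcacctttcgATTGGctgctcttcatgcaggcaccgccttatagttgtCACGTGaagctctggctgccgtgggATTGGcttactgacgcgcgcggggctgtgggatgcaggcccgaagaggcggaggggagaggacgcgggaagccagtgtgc
Mid1: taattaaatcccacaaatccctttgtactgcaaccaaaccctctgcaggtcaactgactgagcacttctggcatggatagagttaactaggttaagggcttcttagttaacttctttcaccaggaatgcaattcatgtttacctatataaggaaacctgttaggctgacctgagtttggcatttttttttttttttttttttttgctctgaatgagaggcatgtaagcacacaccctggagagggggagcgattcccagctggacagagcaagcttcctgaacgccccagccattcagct
The Pign window held the GC box at 2 places and the CCAAT box at 1, each on the opposite strand. The AA465934 window held the E box, which reads the same on both strands, at 1 place and the CCAAT box at 2, and the Mid1 window held none of the 4 motifs. Over 32817 promoters of the same length, 13.6% held the TATA box, 7.15% the E box, 37.4% the CCAAT box and 35.6% the GC box. The G and C content was 64.0% for Pign, 58.0% for AA465934 and 43.7% for Mid1, against a median of 52.7% over all promoters.

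In naïve CON pools the Pign level was 14.5, 15.3, 15.3 and 17.2 CPM. It was 23.2, 24.3, 26.5 and 26.9 CPM in GF pools and 22.5, 23.4, 24.1 and 25.8 CPM in exGF pools. No germ-free-born pool came below any CON pool. After social interaction, CON-SI libraries ranged from 14.1 to 18.5 CPM (median 15.2), GF-SI libraries from 20.6 to 27.9 (median 24.7) and exGF-SI libraries from 14.8 to 28.4 (median 23.8), the lowest of the last being exGF-S7 and the next 22.1. In 27 of 28 germ-free-born libraries Pign was thus above all 12 conventional libraries. Without exGF-S7 Pign was 1 of 2 genes among 16111 (0.0124%) whose conventional and germ-free-born libraries did not overlap at all, the other being the histone gene Hist1h2al, lower in germ-free-born mice, for which exGF-S7 also lay inside the conventional range with 14.7 CPM. With exGF-S7 there was no such gene (0%). The log2 difference of Pign was 0.69 (SE 0.102) for GF over CON, 0.61 (SE 0.0949) for exGF over CON, 0.63 (SE 0.0692) for GF-SI over CON-SI and 0.58 (SE 0.102) for exGF-SI over CON-SI. Colonised and germ-free mice differed little, with −0.08 (SE 0.0908) for exGF over GF and −0.05 (SE 0.0907) for exGF-SI over GF-SI. These contrasts share libraries and chose the gene, so the likeness of the values is no independent support.

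Coq2 (chr5:100654723-100675140, minus strand) had the highest level per kilobase of exon among the 10 genes, with a median over 40 libraries of 15.0 CPM per kb, against 1.68 for Pign. Its level was 21.8, 22.2, 27.4 and 31.3 CPM in CON pools, 35.7, 43.9, 44.3 and 48.5 CPM in GF pools and 35.5, 43.2, 44.7 and 44.8 CPM in exGF pools. Naïve germ-free-born and conventional pools did not overlap. CON-SI libraries ranged from 19.4 to 35.5 CPM (median 32.0) and GF-SI libraries from 20.6 to 50.6 (median 39.3), with overlap. The 8 exGF-SI libraries lay close together between 45.8 and 50.5 CPM (median 47.1), all above every CON-SI library. The spread of exGF-SI was 3.26% of its mean, against 24.5% for CON-SI and 22.6% for GF-SI. The fitted log2 difference was 0.75 (SE 0.135) for GF over CON, 0.72 (SE 0.128) for exGF over CON, 0.46 (SE 0.153) for GF-SI over CON-SI and 0.73 (SE 0.119) for exGF-SI over CON-SI.

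Gnpda1 (chr18:38327535-38339003, minus strand) differed mainly among mice after social interaction. Naïve pools overlapped, with 5.13, 5.82, 7.85 and 9.18 CPM in CON, 4.41, 5.88, 6.23 and 6.84 CPM in GF and 4.77, 5.78, 6.16 and 6.48 CPM in exGF. CON-SI libraries ranged from 5.43 to 14.9 CPM (median 9.38), GF-SI libraries from 3.64 to 6.94 (median 4.97) and exGF-SI libraries from 4.19 to 6.52 (median 5.36). The groups overlapped through the lowest CON-SI library. Its log2 difference was −0.97 (SE 0.137) for GF-SI over CON-SI and −0.88 (SE 0.154) for exGF-SI over CON-SI, and −0.22 (SE 0.203) and −0.25 (SE 0.192) for GF and exGF over CON in naïve mice. The sign of the naïve GF difference turned to 0.12 with library totals as the only scaling, a scaling that moved the median of all genes by 0.33.

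Mid1 (chrX:169685199-170005736, plus strand) differed widely between libraries of the same group. CON pools had 2.48, 2.74, 4.59 and 4.68 CPM. Of the GF pools, P3 and P4 had 2.25 and 1.86 CPM and P1 and P2 had 10.4 and 14.6 CPM. Likewise exGF-P3 and exGF-P4 had 6.93 and 6.52 CPM and exGF-P1 and exGF-P2 had 16.4 and 14.8 CPM. Single animals had 2.75 to 6.54 CPM among CON-SI mice (median 3.73) and 1.84 to 3.71 CPM among GF-SI mice (median 2.47), ranges that overlapped. In exGF-SI, 7 libraries had 10.9 to 20.2 CPM and exGF-S7 had 2.05. No GF-SI animal thus reached the level of those 7 exGF-SI animals, while 2 of 4 naïve GF pools had 10.4 and 14.6 CPM. The log2 difference of this gene was 1.06 (SE 0.567) for GF over CON and −0.61 (SE 0.168) for GF-SI over CON-SI, a turn of sign that was not tested. For exGF it was 1.64 (SE 0.343) over CON and 1.81 (SE 0.296) for exGF-SI over CON-SI, and exGF-SI over GF-SI gave 2.43 (SE 0.245). Exons of 3 antisense genes share 951, 144 and 110 of the 6720 exon bases of Mid1, and the authors counted without regard to strand, with a setting under which a read that lies wholly in bases of more than 1 gene counts for none.

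Serpinb1a (chr13:32842092-32851185, minus strand) split the naïve GF pools in the same way as Mid1, with 3.06 and 4.07 CPM in P1 and P2 and 0.0939 and 0.599 CPM in P3 and P4. CON pools had 2.48, 2.51, 2.88 and 3.42 CPM and exGF pools 1.16, 2.21, 3.12 and 4.73 CPM. After social interaction the level ranged from 0.985 to 5.07 CPM among CON-SI mice (median 2.55), from 0.283 to 1.53 among GF-SI mice (median 0.513) and from 0.236 to 2.54 among exGF-SI mice (median 1.42). The GF-SI libraries overlapped with the low end of CON-SI. On the log2 scale the difference was −1.92 (SE 0.333) for GF-SI over CON-SI, −0.95 (SE 0.353) for exGF-SI over CON-SI, −0.49 (SE 0.592) for GF over CON and −0.06 (SE 0.347) for exGF over CON. Of 12 markers of blood cells and neutrophils, Hba-a2, Elane, Mpo and Camp had a median count of 0, and 4 passed the filter on low counts. None of those 4 was called between colonisation groups. The list summed to 90.3 to 146 CPM in CON-SI libraries, 64.6 to 138 CPM in GF-SI libraries and 74.3 to 160 CPM in exGF-SI libraries. The haemoglobin gene Hbb-bs alone had a mean of 73.6 CPM in CON-SI, so that the sum says little of neutrophils. A neutrophil source of Serpinb1a was not tested.

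Sp6 (chr11:97013394-97024734, plus strand) and Krt12 (chr11:99415666-99422259, minus strand) lie 2.391 Mb apart on chromosome 11. Both are genes of surface epithelia and were at low levels here. Sp6 had 0.54, 0.922, 0.99 and 1.44 CPM in CON pools, 2.22, 4.37, 5.35 and 6.32 CPM in GF pools and 3.16, 3.63, 3.63 and 4.28 CPM in exGF pools. The naïve groups did not overlap with CON. After social interaction the ranges overlapped, with 0.267 to 3.09 CPM for CON-SI (median 1.12), 0.261 to 3.45 CPM for GF-SI (median 2.24) and 1.51 to 5.39 CPM for exGF-SI (median 3.01). The fitted log2 difference was 2.14 (SE 0.358) for GF over CON and 1.83 (SE 0.258) for exGF over CON, but 0.48 (SE 0.406) for GF-SI over CON-SI and 1.07 (SE 0.407) for exGF-SI over CON-SI. Of the 3841 exon bases of Sp6, 3329 are shared with the antisense gene Gm11532, whose own counts were at most 0.305 CPM in any library. Reads wholly in shared bases count for neither gene, and where the counted reads of Sp6 lay was not examined.

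Krt12 had 1.49, 1.62, 2.16 and 2.74 CPM in CON pools, 4.89, 5.21, 6.68 and 9.02 CPM in GF pools and 3.08, 4.4, 4.48 and 8.62 CPM in exGF pools. Here too the naïve germ-free-born pools lay above every CON pool. CON-SI libraries ranged from 1.47 to 3.42 CPM (median 1.89), GF-SI libraries from 1.46 to 6.36 (median 4.15) and exGF-SI libraries from 2.64 to 6.29 (median 3.80). Its log2 difference was 1.64 (SE 0.261) for GF over CON, 1.35 (SE 0.327) for exGF over CON, 0.86 (SE 0.206) for GF-SI over CON-SI and 0.87 (SE 0.217) for exGF-SI over CON-SI. The antisense gene A830036E02Rik shares 1007 of the 1852 exon bases of Krt12, and was at higher levels than Krt12, with 8.51 ± 6.42 CPM (SD, n = 4) in CON, 38.9 ± 4.37 in GF and 30.4 ± 8.12 in exGF. Reads that lay wholly in the shared bases were counted for neither gene. Of 12 squamous and corneal markers, 7 passed the filter on low counts. None of those 7 was called between colonisation groups, where at most 1.31% of all genes were called. The keratins Krt5 and Krt14 had a median count of 0. The summed level of the 11 markers matched was 22.1 to 44.1 CPM in CON, 18.7 to 22.2 in GF and 21.8 to 32.0 in exGF. Genes other than corneal keratins add to this sum, among them Dsp with a mean of 7.54 CPM in CON. An epithelial source of Krt12 was not tested.

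Ahnak2 (chr12:112772194-112802657, minus strand) was low per kilobase, with a median of 0.123 CPM per kb over its 14163 exon bases. CON pools had 0.36, 0.638, 0.686 and 1.17 CPM, GF pools 0.799, 2.22, 2.63 and 2.67 CPM and exGF pools 2.31, 2.61, 2.64 and 2.70 CPM. The exGF pools lay above CON and the lowest GF pool, P2, did not. The level ranged from 0.317 to 1.79 CPM for CON-SI (median 0.645), from 0.964 to 3.14 CPM for GF-SI (median 2.26) and from 0.844 to 3.25 CPM for exGF-SI (median 1.93). In 19 of 28 germ-free-born libraries it exceeded all conventional libraries. The log2 difference of this gene was 1.46 (SE 0.414) for GF over CON, 1.77 (SE 0.286) for exGF over CON, 1.29 (SE 0.289) for GF-SI over CON-SI and 1.34 (SE 0.332) for exGF-SI over CON-SI.

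AA465934 (chr11:83291699-83294632, plus strand) was lower in germ-free-born mice, and in steps. CON pools had 8.10, 10.1, 13.5 and 15.7 CPM and CON-SI libraries 7.87 to 16.3 (median 14.1). The GF pools P1 and P2 had 0.652 and 0.799 CPM and P3 and P4 had 3.66 and 3.78 CPM, the reverse of their order for Mid1 and Serpinb1a. Of the GF-SI libraries, 11 lay between 0.530 and 1.66 CPM and GF-S12 had 8.58. Of the exGF-SI libraries, 6 lay between 0.910 and 1.66 CPM, while exGF-S3 and exGF-S7 had 7.44 and 7.55, and the exGF pools had 5.16, 5.21, 5.83 and 10.9 CPM, of which the last lay inside the range of CON. The widest gap between neighbouring libraries in the order of all 40, as a ratio, was from 1.66 to 3.66 CPM, and no single animal lay between 1.66 and 7.44 CPM. All 12 conventional libraries were above the gap, as were 2 of 4 GF, 1 of 12 GF-SI, 4 of 4 exGF and 2 of 8 exGF-SI libraries. On the log2 scale the difference was −2.42 (SE 0.437) for GF over CON, −0.84 (SE 0.262) for exGF over CON, −2.95 (SE 0.355) for GF-SI over CON-SI and −2.27 (SE 0.412) for exGF-SI over CON-SI.

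Gm3608 (chr1:105455971-105458829, plus strand) lies 59593 bases from Pign. It had 11, 17, 20 and 37 counts in CON pools, or 1.52 to 2.62 CPM, against 0, 3, 5 and 7 counts in GF pools and 1, 1, 1 and 2 counts in exGF pools. The SI libraries were as low, with 0 to 0.423 CPM among CON-SI mice, 0 to 0.267 CPM among GF-SI mice and 0 to 0.509 CPM among exGF-SI mice, and 7 of 40 libraries had no count. Its high level was therefore seen in naïve CON pools and in no other group, CON-SI included. Gm3608 passed the filter on low counts in 3 of 9 pairwise comparisons and the other 9 genes in all.

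Read by overlap, GF and CON pools were apart for 6 of the 10 genes (5.86% of all genes), exGF and CON pools for 7 (3.57%), GF-SI and CON-SI libraries for 1 (0.0807%), exGF-SI and CON-SI libraries for 2 (0.205%), exGF and GF pools for 1 (5.05%), and exGF-SI and GF-SI libraries for 0 (0.0124%). Without exGF-S7 the log2 difference of exGF-SI over CON-SI was 0.66 for Pign, 1.98 for Mid1, −2.67 for AA465934, −0.80 for Serpinb1a and 0.72 for Coq2, each in the direction seen with it. Since these contrasts picked the genes, the counts describe the choice and nothing is read from them.

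**Figure D2:**
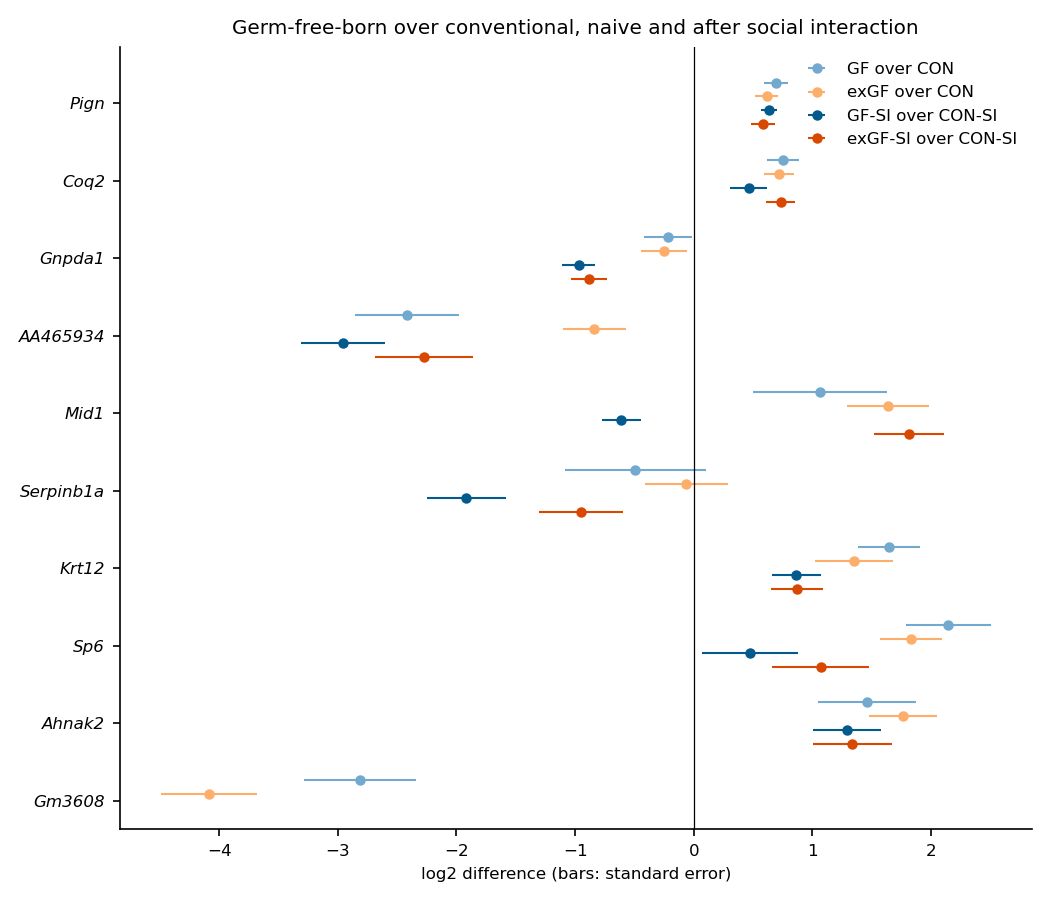
Points give the log2 difference (horizontal axis, bars: standard error) of each gene in 4 contrasts of germ-free-born over conventional mice, naïve (light) and after social interaction (dark), which share libraries. Pign stays near 0.6 in all 4, Mid1 changes sign between GF over CON (1.06) and GF-SI over CON-SI (−0.61), and Gm3608 could be fitted in the naïve contrasts only.

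Whether the 10 genes also changed with social interaction was fitted within each colonisation group. The libraries are also those of the contrasts that picked the genes, so the p-values of the 10 genes here are not independent of the choice, and the high naïve levels that chose some of them are the starting point of their falls. For Gm3608, which passed the filter only where the high naïve CON pools enter, the fitted log2 difference of −3.06 for CON-SI over CON (SE 0.364) is therefore a description without a test. Here and below, p-values come from the quasi-likelihood test of edgeR and are adjusted over all genes after Benjamini and Hochberg, with 0.1 as the threshold. Of the other 9 genes 0 were called in CON mice by edgeR, as by DESeq2, against 3.72% of all genes. An unadjusted p under 0.05, for which the share of all genes was not counted, was found for 1. This was Gnpda1 with 0.52 (SE 0.231, adjusted p = 0.277), which passed in a single fit over the 6 groups (adjusted p = 0.0909) and with library totals as the only scaling (0.85, adjusted p = 0.0616), a scaling that moved the median of all genes by 0.31. Pign was level, with −0.00 (SE 0.0906, adjusted p = 0.999).

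In GF mice, 4 of 9 genes were called lower with social interaction, where 13.7% of all genes were called and 5.86% called lower. Of these 4, Sp6, Krt12 and Mid1 fell from the high naïve GF levels (2.14, 1.64 and 1.06 over CON) of the contrast that picked genes. Serpinb1a had −0.49 there. The count is therefore not comparable with the share of all genes, and nothing is read from it. Mid1 fell by 1.5 on the log2 scale (SE 0.353, adjusted p = 0.0153 by edgeR), from 7.27 ± 6.26 CPM (SD, n = 4) to 2.60 ± 0.629 (n = 12). Sp6 fell by 1.13 (SE 0.358, adjusted p = 0.0586 by edgeR), Serpinb1a fell by 1.45 (SE 0.525, adjusted p = 0.0953) and Krt12 fell by 0.68 (SE 0.221, adjusted p = 0.0632). For each of the 4 genes the GF-SI and GF libraries overlapped. All 4 calls ended without GF-P2, the pool listed as a single animal: Mid1 then gave −0.92 (adjusted p = 0.169 by edgeR), Sp6 −0.93 (0.230), Serpinb1a −0.84 (0.470) and Krt12 −0.66 (0.168). Sp6 also lost its call without GF-P1 (adjusted p = 0.109) or GF-P3 (0.191), Krt12 without GF-P3 (0.304), and Serpinb1a without GF-P1 (0.280), any of 9 GF-SI libraries (up to 0.131) or the filter on low counts (0.129), all by edgeR.

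In exGF mice, 0 of 9 genes were called by edgeR, as by DESeq2, against 7.61% of all genes, and 3 had an unadjusted p under 0.05: AA465934 with −1.30 (SE 0.551, p = 0.0321, adjusted p = 0.195 by edgeR), Serpinb1a with −0.94 (SE 0.401, p = 0.0337, adjusted p = 0.199) and Coq2 with 0.17 (SE 0.0708, p = 0.0265, adjusted p = 0.176). The share of all genes with an unadjusted p under 0.05 was not counted, so nothing is read from this count of 3. Without exGF-S7 AA465934 was called with −1.70 (adjusted p = 0.0730 by edgeR), and without exGF-S3 with −1.69 (adjusted p = 0.0871). Without the Gm42418-rich libraries Mid1 was called with 1.21 (adjusted p = 0.0674 by edgeR), against 0.36 (SE 0.392, adjusted p = 0.637) with them. That omission takes out the high pools exGF-P1 and exGF-P2 (16.4 and 14.8 CPM) and the low animal exGF-S7 (2.05 CPM). It leaves exGF-P3 and exGF-P4 (6.93 and 6.52 CPM) as the only naïve exGF pools. Differences of these responses between colonisation groups were not tested, since they are made of the same libraries as the contrasts that picked the genes.

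**Figure D3:**
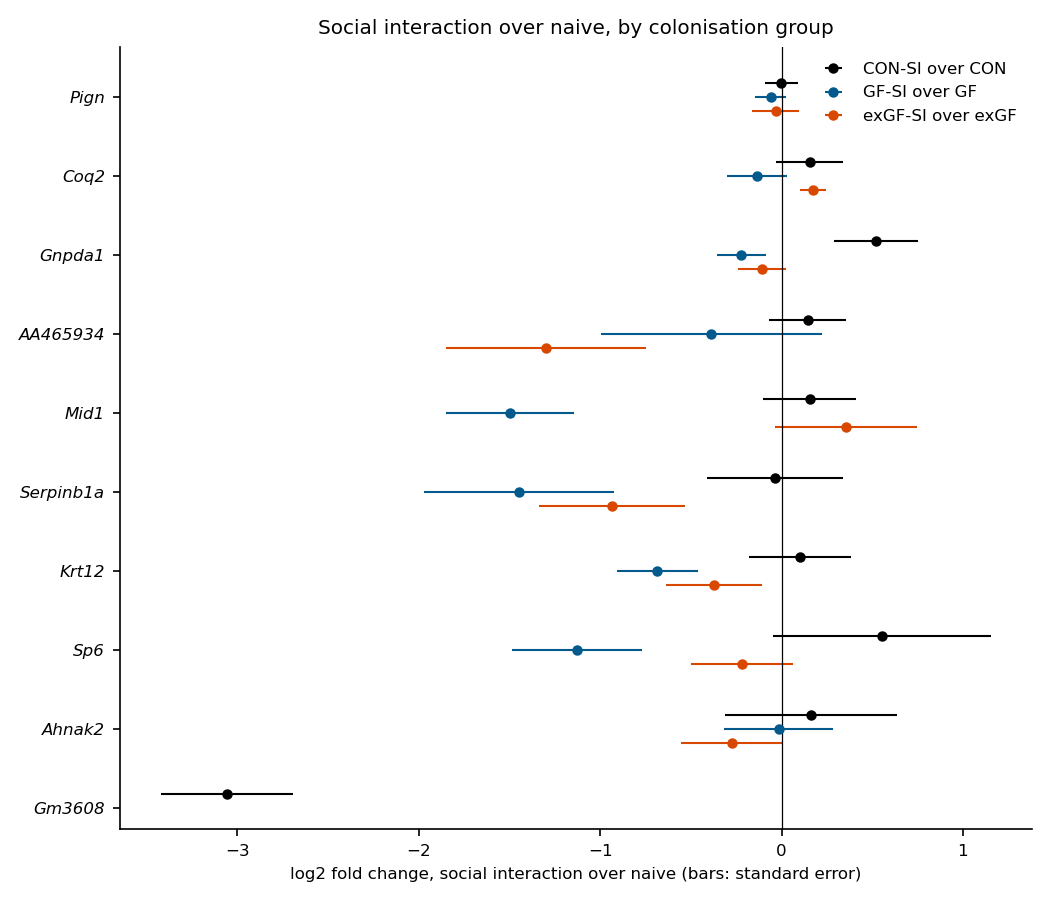
Points give the log2 fold change of social interaction over naïve (horizontal axis, bars: standard error) for each gene within CON, GF and exGF mice. Pign stays near 0 in all 3, Mid1, Serpinb1a, Sp6 and Krt12 are lower in GF-SI, and Gm3608, fitted in CON mice only, is lowest.

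The genes that lie within 500 kb of the 10 were not used to pick them, and whether they differed too was tested between the colonisation groups. Some of them overlap a gene of the 10 on the opposite strand, as G530011O06Rik does with Mid1. Since the counts ignored strand, the levels of overlapping genes may not be independent of those of the 10. In naïve mice, 0 of 121 genes within 500 kb were called in GF over CON by edgeR (0.142% of all genes). In exGF over CON it was 1 of 121 (0.104%) and in exGF over GF 0 of 120 (0%). After social interaction 4 of 125 were called in GF-SI over CON-SI (1.10% of all genes). It was 1 of 123 in exGF-SI over CON-SI (1.31%) and 0 of 124 in exGF-SI over GF-SI (0.0995%). These shares rest on 5 or fewer calls each. DESeq2 called 3 neighbours in GF over CON, 0 in exGF over GF and 1 in exGF-SI over GF-SI. Over all genes it called 156 of 16873, 72 of 12342 and 300 of 13789. An unadjusted p under 0.05 by edgeR was found for 16, 10 and 11 neighbours in the naïve comparisons, in the order above. After social interaction it was found for 31, 25 and 14. The share of all genes at that p was not counted, so nothing is read from these counts.

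The neighbour called in exGF over CON was D030028A08Rik, a non-coding transcript 48.3 kb from Sp6, which fell by 2.29 on the log2 scale (SE 0.237, adjusted p = 0.00177 by edgeR). It had 7.55 ± 1.73 CPM (SD, n = 4) in CON and 1.53 ± 0.356 in exGF. In GF it had 1.13, 1.24, 1.45 and 5.93 CPM, and GF over CON gave −1.56 (SE 0.444, adjusted p = 0.300). The call was kept without each library in turn, but not without the Gm42418-rich libraries (adjusted p = 0.143 by edgeR) or in a single fit over the 6 groups (adjusted p = 0.476). Single animals after social interaction spread widely, from 0.530 to 9.41 CPM in GF-SI and from 0.801 to 6.51 in exGF-SI, against 3.91 to 9.91 in CON-SI.

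In GF-SI over CON-SI the called neighbours were Gm11940, an antisense transcript 27.8 kb from Krt12 (−1.43, SE 0.241, adjusted p = 0.00572 by edgeR), G530011O06Rik, which overlaps Mid1 (−1.19, SE 0.227, adjusted p = 0.0146), Slfn8, a Schlafen family gene 270.9 kb from AA465934 (1.48, SE 0.329, adjusted p = 0.0442), and Pcdhgb8, a clustered protocadherin 485.7 kb from Gnpda1 (−1.10, SE 0.263, adjusted p = 0.0623). Slfn8 was also the neighbour called in exGF-SI over CON-SI (1.59, SE 0.384, adjusted p = 0.0761 by edgeR), with 0.557 ± 0.393 CPM (SD, n = 8) for CON-SI, 1.58 ± 0.592 (n = 12) for GF-SI and 1.69 ± 0.764 (n = 8) for exGF-SI, so that both comparisons share the CON-SI libraries. In naïve mice Slfn8 had 0.674 ± 0.241 CPM in CON, 1.21 ± 0.397 in GF and 1.22 ± 0.383 in exGF. G530011O06Rik shares exon bases with Mid1, and had 6.80 ± 3.0 CPM among CON-SI mice, 2.99 ± 1.06 CPM among GF-SI mice and 4.25 ± 1.30 CPM among exGF-SI mice. The call of G530011O06Rik held in all 20 fits that left out 1 library (adjusted p up to 0.0434 by edgeR). That of Gm11940 held in the 19 such fits in which it was tested (up to 0.0137). That of Slfn8 in GF-SI ended without CON-S5 (0.101), that in exGF-SI without any of 7 libraries (up to 0.152), and that of Pcdhgb8 without any of 7 (up to 0.160). None of these calls was kept in a fit with the library number as a further factor (adjusted p = 0.108 to 0.17 by edgeR).

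**Figure D4:**
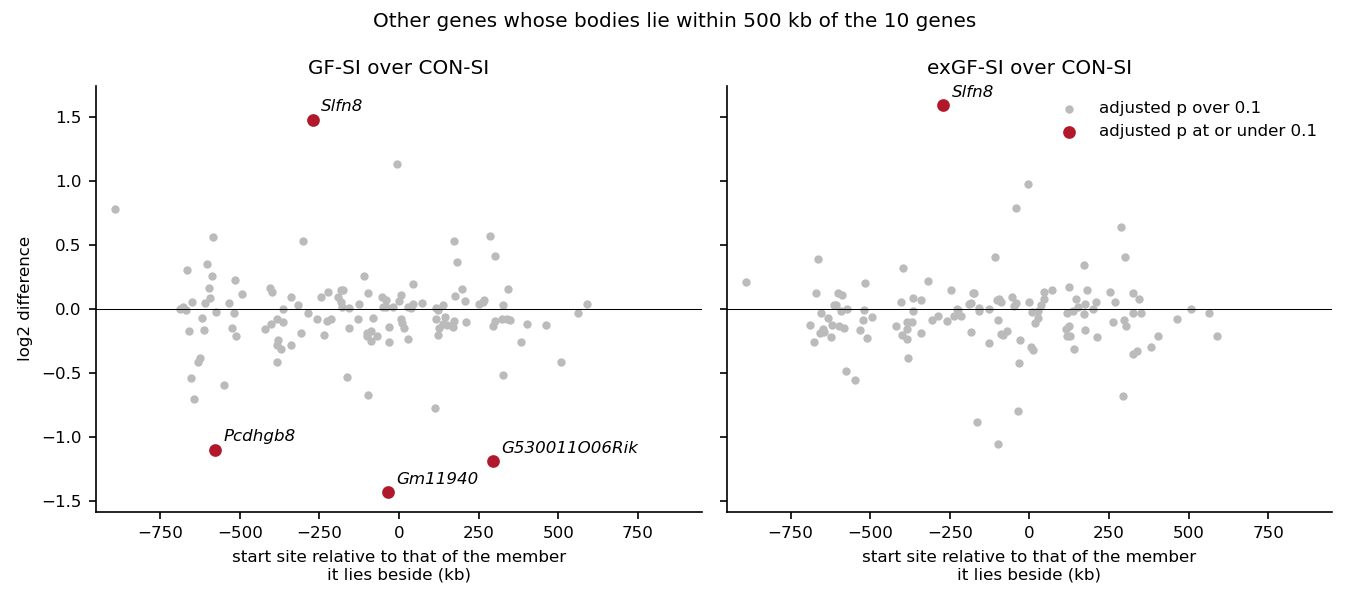
Each point is a gene whose body lies within 500 kb of a gene of the 10, placed by the distance between the start sites (horizontal axis, kb) and by its log2 difference after social interaction (vertical axis), for GF-SI over CON-SI (left) and exGF-SI over CON-SI (right). Red points passed an adjusted p of 0.1, 4 on the left and 1 on the right.

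The genes most like each of the 10 were looked for across the 28 single-animal libraries, after subtracting each group's mean from the log2 CPM, among 16110 other genes. Chosen as the highest of so many, these correlations carry no p and are descriptions. For Sp6 a gene beside it on chromosome 11, D030028A08Rik at 48.3 kb, was among the most similar, with Pearson's r of −0.72 (Spearman's rho −0.68). Without the 2 libraries most extreme for Sp6, r was −0.70. Of the 22 genes within 500 kb of Sp6 that could be ranked, Skap1 ranked 5th with −0.62 and Copz2 17th with −0.55. In GF-S5, which had the lowest Sp6 level of all 40 libraries (0.261 CPM, 4 counts), D030028A08Rik stood at 9.41 CPM, the highest of GF-SI. In GF-S4, with the highest Sp6 level of GF-SI (3.45 CPM), it stood at 1.73 CPM.

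**Figure D5:**
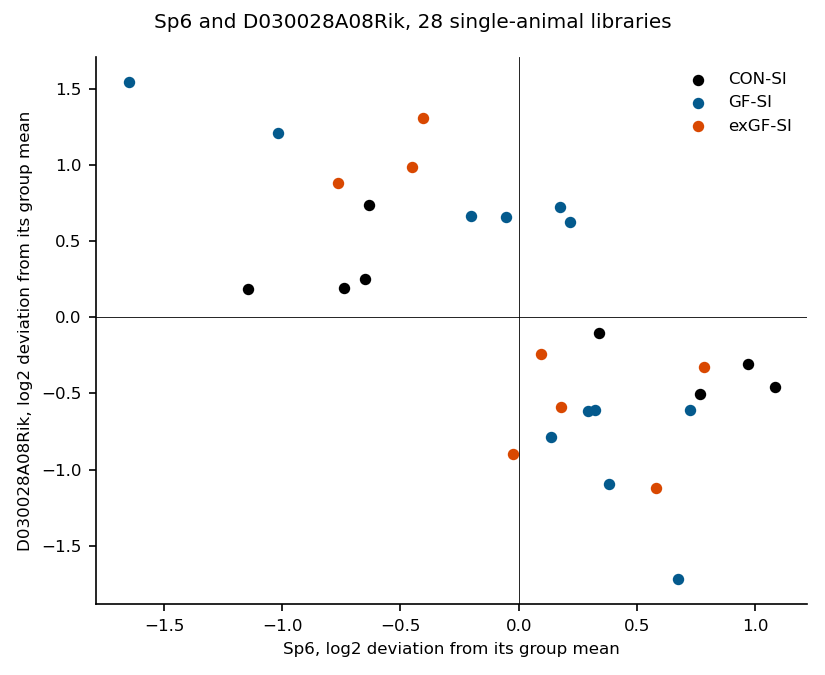
Each point is a single-animal library, placed by the deviation of Sp6 (horizontal axis, log2) and of D030028A08Rik (vertical axis, log2) from their group means. Libraries with low Sp6 tend to have high D030028A08Rik, with r of −0.72.

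For the other genes the most similar ones lay on other chromosomes or far away. Krt12 had r of −0.70 with Olfml2b and 0.68 with Gm28050, and its overlapping antisense gene A830036E02Rik ranked 4th with 0.65 (rho 0.76). Serpinb1a had −0.80 with Sec22c and −0.78 with Usp6nl, Ahnak2 0.76 with Cemip2 and 0.69 with Akap2, Coq2 −0.75 with Zfas1 and 0.73 with Chchd5, and Gnpda1 0.74 with Gm1976 and −0.72 with Zfp369. Gm3608 had −0.68 with Pigw, and AA465934 had −0.75 with Fam20b and −0.68 with C130046K22Rik. The genes most like Pign (Hccs, 0.78, and C030014I23Rik, 0.73) and Mid1 (Cnot8, 0.75, and Adam15, 0.71) owed their place to exGF-S7: without it r was 0.55, 0.53, 0.22 and 0.39. Between the 10 genes themselves r ranged from −0.41 (Ahnak2 and Gnpda1) to 0.54 (Serpinb1a and Gnpda1). Pign and its neighbour Gm3608 had 0.21, or 0.04 without exGF-S7.

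Few other genes of the pathways and families were called between colonisation groups. Over all lists 0 of 77 were called in GF over CON, 0 of 79 in exGF over CON and 0 of 78 in exGF over GF. Among SI mice 2 of 79 (2.53%) were called in GF-SI over CON-SI and 2 of 79 (2.53%) in exGF-SI over CON-SI. In exGF-SI over GF-SI it was 0 of 81, beside 0.0995% of all genes. So few of all genes were called that nothing is read about the families from these shares. Of 28 other genes of GPI anchor synthesis, none was called between naïve groups by edgeR, where 0.142% (GF over CON), 0.104% (exGF over CON) and 0% (exGF over GF) of all genes were called. After social interaction 2 fell in GF-SI against CON-SI (Gpaa1, a transamidase subunit, −0.31, SE 0.0731, adjusted p = 0.0623; Mppe1, which trims the anchor, −0.28, SE 0.0673, adjusted p = 0.0623), beside 1.10% of all genes called, and 2 were lower in exGF-SI (Pigq, −0.30, SE 0.0717, adjusted p = 0.0703; Pigo, −0.29, SE 0.0738, adjusted p = 0.0893), beside 1.31% of all genes. These shares rest on 2 calls each. The median of the 28 was 0.09 in GF over CON and −0.07 in GF-SI over CON-SI, beside 0.00 and −0.01 for all genes. The direction of these 4 was opposite to that of Pign, and each call ended without any of 5 to 13 libraries (adjusted p up to 0.181 by edgeR). No gene among 12 of coenzyme Q synthesis, 12 of hexosamine metabolism, 22 clade B serpins, 8 Sp factors, 13 type I keratins, 14 TRIM proteins and PP2A subunits and 4 AHNAK family genes and partners was called in any of the 6 colonisation comparisons, of which 3 to 5 serpins and 2 to 3 keratins passed the filter on low counts.

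With social interaction 14 of 82 of these genes were called in GF mice (17.1%, beside 13.7% of all genes), 6 of 82 in exGF mice (7.32%, beside 7.61%) and 1 of 80 in CON mice (1.25%, beside 3.72%), shares from which nothing is read about the families. For GF-SI over GF, 5 GPI genes were lower and 1 higher, led by Pigp, part of the first transferase of the pathway (−0.65, SE 0.110, adjusted p = 0.00210 by edgeR). The methyltransferase gene Coq3 was lower (−0.50, SE 0.0938, adjusted p = 0.00460) and Coq10b, of a coenzyme Q chaperone, higher (0.39, SE 0.143, adjusted p = 0.0994). Of the hexosamine genes, Gfpt1, the first enzyme of the pathway, was higher (0.38, SE 0.0765, adjusted p = 0.00660), as were Gnpnat1 and Mgea5, and Amdhd2 was lower (−0.59, SE 0.134, adjusted p = 0.0130). Sp4 was lower (−0.22, SE 0.0702, adjusted p = 0.0562) and Ppp2r1b, a PP2A scaffold subunit, higher (0.42, SE 0.152, adjusted p = 0.0926). The calls of Pigp, Coq3, Gfpt1 and Amdhd2 held without each library in turn, with an adjusted p up to 0.0910, and the others ended without GF-P2 or GF-P3 among others (up to 0.334). In exGF-SI over exGF, 2 GPI genes (Pigq, −0.39, and Pigo, −0.39), Coq8a (−0.52) and Trim36 (−0.75) were lower and Mgea5 (0.26) and Serpinb6a (0.30) higher, with adjusted p between 0.0197 and 0.0814 by edgeR. Without the Gm42418-rich libraries 5 of these 6 calls ended (adjusted p = 0.127 to 0.421 by edgeR). In CON-SI over CON the single call was Pigf (0.40, SE 0.113, adjusted p = 0.0941 by edgeR), which ended without any of 11 libraries (up to 0.232).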

How the data were processed

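Bulk RNA-seq of the amygdala gave 40 libraries in 6 groups. The authors deposited 1 table of raw read counts per gene, made per the submitters' processing notes with Trimmomatic 0.32, STAR 2.4.0f1 and HTSeq 0.6.0 on GRCm38, without regard to strand. Columns of the authors' own DESeq2 comparisons (fold changes and p-values) were not used. Library columns were assigned to groups by name.

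The counts were scaled by TMM and tested per pairwise comparison with edgeR 4.0.16 (quasi-likelihood, filterByExpr, Benjamini-Hochberg adjustment, threshold 0.1; R 4.3.3), a test checked on simulated counts. DESeq2 1.42.0, RLE scaling, library totals only, no filter, a single fit over 6 groups, a replicate block, omission of the Gm42418-rich libraries and of each library in turn were alternatives. Values are TMM-scaled CPM with SD between libraries, and p-values measure the spread between these libraries only.

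The members and lists were chosen with earlier results of these data known. Named are all 10 genes, up to 3 called neighbours within 500 kb of each, the 2 genes most correlated with each (some of these are not reported here), and up to 4 called genes of each list by smallest p. Skap1, Copz2, Gm11532, A830036E02Rik, Hist1h2al, Gnpnat1, Mgea5 and markers were named after their values were seen. Exon overlaps come from GENCODE (GRCm38), promoters from RefSeq, which gave a window for 6 of the 10 genes.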

Additional observations from a re-analysis of the deposited data

Results flagged for a closer look

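In 5 of 50 tests of a gene in a group, a library stood apart from the rest of its group by Dixon's criterion, where chance alone gives about 1 in 20. Pign was at 14.8 CPM in exGF-S7, against 22.1 to 28.4 in the other 7 exGF-SI libraries. AA465934 was at 10.9 CPM in exGF-P2, against 5.16 to 5.83 in the other exGF pools. Mid1 was at 6.54 CPM in CON-S3, the highest of CON-SI. Gm3608 was at 0.077 CPM in exGF-P3 and at 0.509 CPM in exGF-S6, both values of a few reads. The 50 tests do not cover each gene in all 6 groups. AA465934 in GF-S12 is not among those flagged, with 8.58 CPM against 0.530 to 1.66 in the other GF-SI libraries.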

How the results depend on the processing

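Gm3608 was left out of the counts of member calls, since it passed the filter only through the high naïve CON pools. Of the other 9 members, 0 were called in CON-SI over CON, also without each library in turn. Gnpda1 was called there in a single fit over 6 groups and with library totals only. In GF-SI over GF 4 were called (0 to 4 without each library in turn), or 3 with no filter, without Serpinb1a. In exGF-SI over exGF 0 were called (0 to 1 without each library in turn). There 1 was called without the Gm42418-rich libraries and 1 without exGF-S7, an omission added after seeing the data. Over all genes the calls of CON-SI over CON went from 566 to 26 without the Gm42418-rich libraries, among them 2 of 4 CON pools. Members whose germ-free-born and conventional libraries did not overlap numbered 0 (1 without the Gm42418-rich libraries; 0 to 1 without each library). Called neighbours in GF over CON numbered 0 (DESeq2 3, RLE scaling 1, no filter 5, single fit 2, replicate block 1; 0 to 1 without each library), in exGF over CON 1 (no filter 3, single fit 0, without Gm42418-rich libraries 0; 1 to 2), and in exGF over GF 0 (0 to 0). In GF-SI over CON-SI they numbered 4 (DESeq2 8, replicate block 0; 2 to 9), in exGF-SI over CON-SI 1 (DESeq2 5, single fit 3, without Gm42418-rich libraries 3, without exGF-S7 3, replicate block 0; 0 to 3), and in exGF-SI over GF-SI 0 (DESeq2 1, single fit 1, replicate block 1; 0 to 0). Calls of other genes of the lists over the 9 comparisons numbered 25, of 20 genes (no filter 11 calls, single fit 40). Over all genes DESeq2 called 156 in GF over CON, 521 in GF-SI over CON-SI and 564 in exGF-SI over CON-SI. By edgeR these were 21, 166 and 195. The cause of these changes was not tested. Whether same-numbered libraries shared more than a number cannot be told from these values. Correlations of their deviations ranged from −0.50 to 0.40. In each naïve comparison 2 of 4 libraries of either group correlated best with their own number. For GF-SI over CON-SI it was 0 of 8. With the replicate block the calls over all genes went from 15 to 349 in exGF-SI over GF-SI. They went from 195 to 3 in exGF-SI over CON-SI and from 166 to 28 in GF-SI over CON-SI. For social interaction over naïve no paired analysis was possible because pools and animals are numbered separately. Of 1081 values of members between colonisation groups under the alternatives, 1069 moved by less than 1 SD and 12 by more; library totals alone moved the median of all genes by 0.33 in GF over CON. Low counts limit Gm3608, Ahnak2, Serpinb1a and Sp6. The counts of Sp6 were 3 to 16 in CON pools.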
